A study of Homo sapiens with 13 samples.

Results

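Regions of histone H3 acetylated at lysine 27 (H3K27ac) were mapped across the genes of PANC1 by CUT&RUN. PANC1 is an established cell line from a human carcinoma of the pancreatic duct, and CUT&RUN cuts out the DNA beside a bound antibody for sequencing. Each of the 2 H3K27ac libraries had its own peak list, with 32499 peaks in replicate 1 and 32294 peaks in replicate 2. Peaks of both lists on chromosomes 1 to 22 and X were merged, and the 24239 merged regions that held a peak from each replicate, of 36835 in all, are described here. All 12 libraries of the series together held 186303 peaks. The cells of every library were a stable line expressing BRG1, labelled PANC1-BRG oe and taken here as BRG1 overexpression, with no added treatment. No PANC1 cells without that construct were profiled, and the cells were mildly crosslinked. The groups were 2 libraries each of H3K27ac, of H3K4me3, of H3K4me1, and of the proteins BRG1, SMARCC1 and NRF2, and an IgG library was not used here. The labels do not say whether replicates were separate cultures. They name the tissue as pancreatic, and the only check of cell type that these data allow is the acetylation of marker genes given below.

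H3K27ac is written by the acetyltransferases p300 and CBP and is found at active promoters and active enhancers, where acetylation neutralises the lysine's charge and is bound by bromodomain proteins. H3K4me3 marks promoters and H3K4me1 marks enhancers, so that acetylated regions can be sorted by the methylation that they meet. Long clusters of acetylated regions are common at genes that a cell type transcribes strongly. In the pancreas, ducts, acini and islets use different genes, and pancreatic duct carcinoma lines range from epithelial to mesenchymal in character.

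The promoters of 3 leading acetylated loci and of 3 pancreatic genes with no acetylated region in the gene or 50 kb around it are shown first, because the CpG content and the acetylation of starts ran together in these data. Each sequence is the RefSeq GRCh38.p14 stretch from 250 bases before to 50 bases after the gene's start, 5′ to 3′ on the gene's own strand. Capitals mark CpG dinucleotides. SMAD3, the transducer of TGF-beta signals, has its promoter at chr15:67065352-67065651, plus strand, with 44 CpG. ACTN4, which encodes the actin cross-linker alpha-actinin 4, has its promoter at chr19:38647399-38647698, plus strand, with 47 CpG. SEPTIN9, which encodes a cytoskeletal GTP-binding septin, has its promoter at chr17:77281249-77281548, plus strand, with 36 CpG. CFTR, the chloride channel of duct cells, lies at chr7:117479775-117480074, plus strand, with 12 CpG. CPB1, the acinar enzyme carboxypeptidase B, lies at chr3:148827561-148827860, plus strand, with 0 CpG. INS, the insulin gene of islet beta cells, lies at chr11:2161160-2161459, minus strand, with 7 CpG.
SMAD3: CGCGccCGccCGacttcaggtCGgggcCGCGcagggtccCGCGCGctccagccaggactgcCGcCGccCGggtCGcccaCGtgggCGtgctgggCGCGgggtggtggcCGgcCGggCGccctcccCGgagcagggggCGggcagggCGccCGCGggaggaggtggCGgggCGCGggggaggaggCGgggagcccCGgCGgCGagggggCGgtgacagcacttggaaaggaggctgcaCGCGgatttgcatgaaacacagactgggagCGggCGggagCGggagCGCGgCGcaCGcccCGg
ACTN4: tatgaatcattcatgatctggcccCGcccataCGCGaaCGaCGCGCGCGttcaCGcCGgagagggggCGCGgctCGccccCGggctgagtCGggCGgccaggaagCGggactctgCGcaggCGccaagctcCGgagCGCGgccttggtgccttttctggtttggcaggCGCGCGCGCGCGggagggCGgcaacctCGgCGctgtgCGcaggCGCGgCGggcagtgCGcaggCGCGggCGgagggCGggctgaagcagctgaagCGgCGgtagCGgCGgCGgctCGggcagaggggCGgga
SEPTIN9: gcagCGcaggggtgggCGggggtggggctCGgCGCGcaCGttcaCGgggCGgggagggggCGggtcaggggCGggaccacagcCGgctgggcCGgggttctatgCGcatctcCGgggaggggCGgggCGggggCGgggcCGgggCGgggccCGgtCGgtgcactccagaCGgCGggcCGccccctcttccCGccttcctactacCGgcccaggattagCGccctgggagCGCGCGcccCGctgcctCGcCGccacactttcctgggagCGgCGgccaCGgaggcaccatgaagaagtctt
CFTR: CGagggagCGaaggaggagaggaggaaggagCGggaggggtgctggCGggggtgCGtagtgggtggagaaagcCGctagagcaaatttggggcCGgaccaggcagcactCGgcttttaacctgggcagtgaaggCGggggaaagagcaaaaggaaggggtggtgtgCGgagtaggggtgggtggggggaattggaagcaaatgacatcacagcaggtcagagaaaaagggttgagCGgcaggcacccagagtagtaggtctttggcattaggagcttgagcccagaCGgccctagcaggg
CPB1: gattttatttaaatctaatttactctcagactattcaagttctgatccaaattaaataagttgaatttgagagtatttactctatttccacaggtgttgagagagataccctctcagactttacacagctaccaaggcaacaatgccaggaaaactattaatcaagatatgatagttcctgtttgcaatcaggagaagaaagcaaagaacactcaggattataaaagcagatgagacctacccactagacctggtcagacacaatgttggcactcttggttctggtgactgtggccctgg
INS: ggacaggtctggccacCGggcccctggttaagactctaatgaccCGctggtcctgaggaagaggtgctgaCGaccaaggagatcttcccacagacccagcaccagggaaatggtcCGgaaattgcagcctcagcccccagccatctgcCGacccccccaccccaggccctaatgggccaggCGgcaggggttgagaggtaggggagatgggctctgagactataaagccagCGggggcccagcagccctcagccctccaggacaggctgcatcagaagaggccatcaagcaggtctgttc
Within 1000 bp on each side of these starts, H3K27ac regions covered 1491 bp at SMAD3, 1003 bp at ACTN4 and 609 bp at SEPTIN9. They covered 0 bp at CFTR, CPB1 and INS. H3K4me3 regions covered 995 bp, 1201 bp and 1773 bp at SMAD3, ACTN4 and SEPTIN9, and likewise 0 bp at the other 3 starts.

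Acetylated regions were mostly short and close in strength. Together they covered 16.5 Mb, with a median width of 552 bp (quartiles 376 and 838.5 bp, maximum 7269 bp). Strength was the fold enrichment that the authors' peak caller gave each peak, taken as the mean over both libraries of the highest value in a region. Its median was 3.86 (quartiles 3.32 and 4.64, maximum 12.6). The 476 regions of at least 2000 bp made up 1.96% of regions and 7.54% of covered bases. Strength and width had a Spearman correlation of 0.48 across regions, and the 100 strongest and 100 widest regions shared 5. With only peaks of −log10 q of at least 5 in both libraries 1579 regions were left, and 77.0% of those met H3K4me3.

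The replicates gave close fold values for most regions with a peak in each. Only such regions were kept, and their folds spanned a narrow range, which limits how far the replicates could differ. The other replicate met 80.4% of replicate 1 peaks and 80.7% of replicate 2 peaks. Peaks that it did not meet were narrower, with a median of 243 bp against 439 bp for matched peaks in replicate 1, and 246 bp against 440 bp in replicate 2. Across the 24239 regions the fold enrichments of the replicates had a Spearman correlation of 0.61, a description across regions of the same 2 libraries. The median absolute difference was 0.19 on the log2 scale, and 275 regions, or 1.13%, differed by more than 2-fold.

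Promoter-type regions, those that met H3K4me3, were the largest class of the acetylated set, followed by regions with neither mark and by enhancer-type regions, those with H3K4me1 alone. Of the 24239 regions, 12998 or 53.6% (95% exact binomial interval 53.0 to 54.3, counting error only) met H3K4me3 without H3K4me1. A further 4753 or 19.6% (19.1 to 20.1) met H3K4me1 without H3K4me3, and 295 or 1.22% met both. The remaining 6193 or 25.5% met neither mark. By the authors' q the H3K4me1 calls were weak, with 0.641% and 0.234% of peaks at −log10 q of at least 5. The shares were 7.86% and 8.02% for H3K27ac and 70.8% and 72.6% for H3K4me3. A region that met no H3K4me1 may therefore lack only a call. Regions with both marks were the strongest and widest class, with a median fold of 4.45 and a median width of 907 bp. Regions with H3K4me3 alone had medians of 4.03 and 625 bp, and those with H3K4me1 alone 3.85 and 530 bp. Regions with neither were the weakest and narrowest, at 3.58 and 441 bp. Wide regions are more likely to meet a mark by 1 bp, so these widths may in part follow from the overlap rule. Seen by library, 50.2% of replicate 1 peaks and 51.7% of replicate 2 peaks met H3K4me3, and 20.5% and 20.4% met H3K4me1.

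BRG1, SMARCC1 and NRF2 were each found in few acetylated regions, and each met more regions with H3K4me1 alone than of any other class. BRG1, the ATPase of the BAF complexes, met 666 acetylated regions, or 2.75%, and 308 of them had H3K4me1 alone. By class, BRG1 met 6.48% of regions with H3K4me1 alone, 4.04% of those with neither mark, 2.03% of those with both and 0.785% of those with H3K4me3 alone. SMARCC1, a core BAF subunit, met 134 regions, of which 71 had H3K4me1 alone. By class, SMARCC1 met 3.73% of regions with both marks, only 11 of 295, and 1.49% of those with H3K4me1 alone. It met 0.331% of those with H3K4me3 alone and 0.145% of those with neither. NRF2, the antioxidant response factor, met 84 regions, of which 45 had H3K4me1 alone. The BRG1, SMARCC1 and NRF2 lists were short, with 2039, 169 and 383 regions in both replicates, and the depth of every library is unknown.

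Acetylated peaks lay between the methylation marks in their distance from gene starts. Within 1 kb of a start in the RefSeq promoter table lay 33.4% and 34.3% of H3K27ac peaks in the 2 libraries. The shares were 63.0% and 62.5% for H3K4me3 peaks and 3.06% and 2.65% for H3K4me1 peaks. That table lacks the starts of 4162 coding genes, so peaks near only those starts are not counted. The groups did not overlap. The mean was 33.9% ± 0.635 for H3K27ac against 62.7% ± 0.334 for H3K4me3 and 2.85% ± 0.292 for H3K4me1 (SD, n = 2 each). The exact permutation test over libraries gave a two-sided p of 0.333 for both contrasts, the smallest that 2 against 2 libraries allow, so this design cannot call a difference. Median peak width was 375 and 380 bp for H3K27ac, against 1012 and 1092 bp for H3K4me3 and 314 and 308 bp for H3K4me1, with the same exact p of 0.333 for each contrast.

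Regions over starts were the strongest and widest. Distances were taken for the 23467 regions on chromosomes with starts in the RefSeq promoter table. Many of the 4162 coding-gene starts missing from it lie on these chromosomes, so a region near one counts as farther from a start. A start lay inside 2613 regions, or 11.1%, and these had a median fold of 4.64 and a median width of 944 bp. A wide region is more likely to hold a start, so this width may in part follow from how the class is set. Regions 1 to 1000 bp from a start were 26.4% of the set, with medians of 3.89 and 571 bp. Regions over 50000 bp from any tabled start were 24.4%, with medians of 3.75 and 478 bp. H3K4me3 was met by 97.9% of regions over a start and 22.3% of those beyond 50000 bp, and H3K4me1 by 2.72% and 35.2%. Coding gene spans held 74.1% of all 24239 regions, and 6.65% lay more than 50 kb from any coding gene.

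Around starts the acetylation was asymmetric. At each position from 3000 bp before to 3000 bp after 15812 coding-gene starts, the share of starts covered by an H3K27ac region was counted. It reached 15.6% at 300 bp before the start, dipped to 14.1% at 50 bp before it and was highest, 33.1%, at 400 bp into the gene. Each library alone had the same 2 shoulders, with 31.6% in replicate 1 and 32.9% in replicate 2 at 400 bp into the gene, against 11.5% and 13.5% at 50 bp before the start. H3K4me3 had no such dip and covered 56.9% of starts at 200 bp into the gene. H3K4me1 covered 0.828% at the start and at most 1.73%, at 1550 bp into the gene. As background, the bases just before an active start are often free of nucleosomes.

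**Figure D1:**
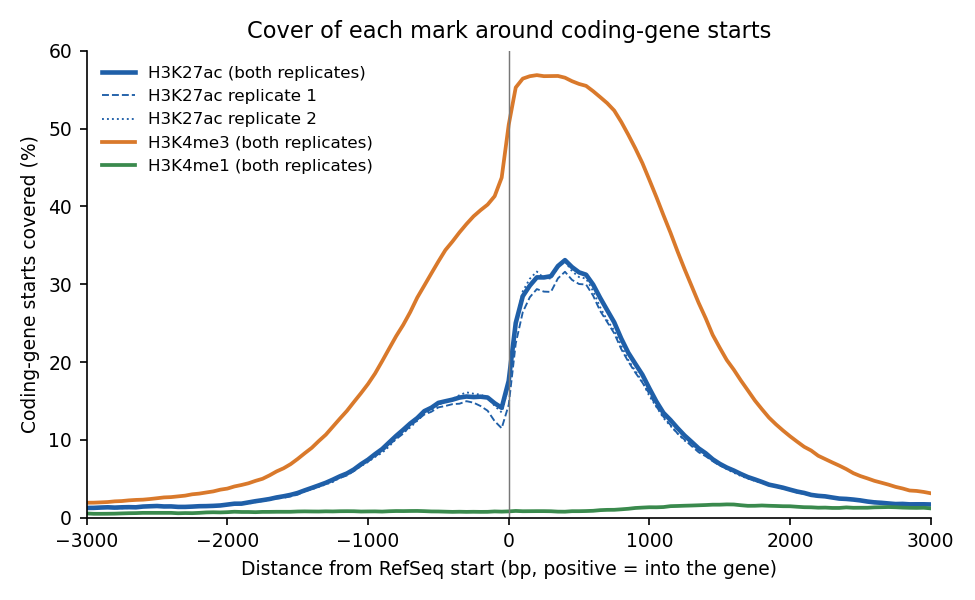
Share of 15812 coding-gene starts (y axis, %) covered by each mark at each distance from the start (x axis, bp), for regions in both replicates and for each H3K27ac library alone. H3K27ac covers most starts, 33.1%, at 400 bp into the gene and shows a dip at 50 bp before the start, while H3K4me3 reaches 56.9% and H3K4me1 stays at or below 1.73%.

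Acetylated starts were CpG-rich. An H3K27ac region lay within 1000 bp of 7177 of 15812 starts, or 45.4% (95% exact interval 44.6 to 46.2), and H3K4me3 within 1000 bp of 9522. The 300-base promoters of acetylated starts held a median of 28 CpG, against 12 in promoters of starts without an acetylated region. Among promoters with 0 to 5 CpG, 5.66% had an acetylated start, and the share was 19.0% at 6 to 10 CpG, 45.8% at 11 to 20, 63.3% at 21 to 30 and 64.9% at 31 or more. The H3K4me3 share ran alongside it, from 5.62% in the lowest class to 85.2% in the highest. Among starts with H3K4me3 the acetylated share changed less, from 69.4% at 0 to 5 CpG and 64.2% at 6 to 10 CpG to 76.0% at 31 or more. These sequence comparisons were chosen after the data had been seen and are descriptions.

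**Figure D2:**
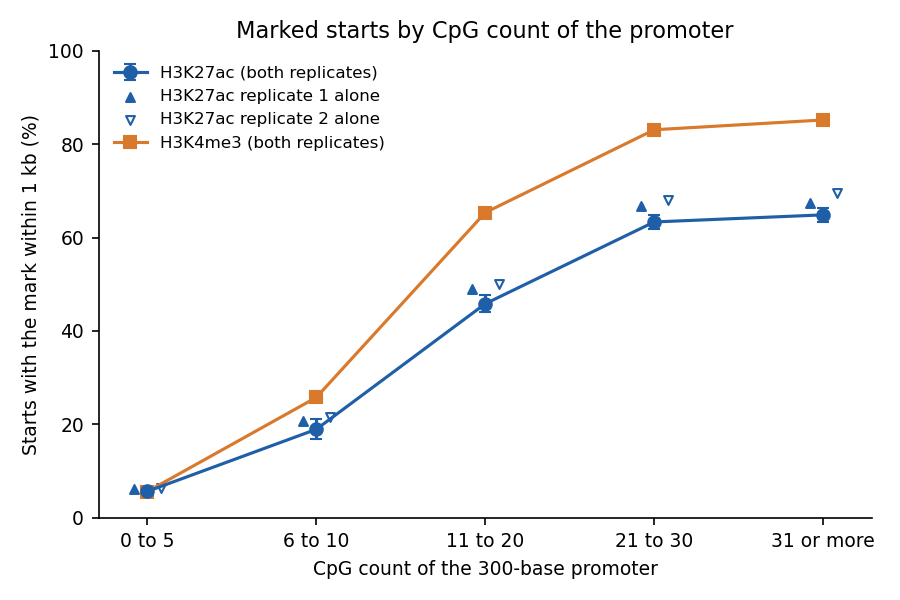
Share of starts with a mark within 1 kb (y axis, %) by CpG count of the 300-base promoter (x axis), with exact 95% intervals for H3K27ac regions in both replicates and triangles for each H3K27ac library alone. The acetylated share is 5.66% in the class of 0 to 5 CpG and 64.9% in the class of 31 or more, and H3K4me3 is at or above it from 6 CpG on.

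Only 128 starts had an acetylated region but no H3K4me3 within 1000 bp. Their promoters held a median of 6 CpG, as did the promoters of the 6162 starts with neither mark. The letters TGANTCA, the site of AP-1, were in 28 of them, or 21.9%, against 8.73% of the promoters with neither mark, 3.65% of those with both and 5.76% of all 15812. Over all acetylated promoters the share was 3.97%, against 7.24% of promoters without acetylation. Leaving out genes with only a LOC number, the strongest of these 128 starts were those of NDST1, a heparan sulfate enzyme, with a fold of 7.29, S100A3 with 6.53 and S100A2 with 6.52. S100A2 encodes a calcium-binding protein of the basal-like class of pancreatic tumours. These 3 promoters hold TGANTCA, and those of SEMA3C, SSC5D, ROBO4, NPLOC4, MB, ACSL5 and PLXNB2, next in order, do not. The letters GGGCGG, the GC box bound by SP1, were in 74.2% of acetylated promoters, against 45.4% of promoters without acetylation and 58.5% of all. Starts with H3K4me3 but no acetylation held it in 74.3%, so the GC box did not separate acetylated from other H3K4me3 starts. CCGGAAGT, an ETS family site, was in 10.9%, against 6.23% of promoters with H3K4me3 alone, 2.27% of promoters without acetylation and 6.20% of all. The letters TATAAA, the core promoter element bound by TBP, were in 4.50% of acetylated promoters, against 5.82% of those with H3K4me3 alone, 13.9% of promoters without acetylation and 9.64% of all. All 4 motifs were searched on both strands, and none contains another. A match only shows that these letters stand in the 300 bases. Of the sequences printed above, SMAD3, ACTN4 and SEPTIN9 hold the GC box, ACTN4 also TGANTCA, and CPB1 and INS hold TATAAA.

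Gene-dense chromosomes held the most regions. Lengths were taken from the first to the last annotated coding gene. Chromosome 17 held 17.3 regions per Mb (22.1 and 22.4 peaks per Mb in the 2 libraries), chromosome 19 held 17.2 (22.3 and 23.5) and chromosome 20 held 11.7 (15.8 and 15.2). The lowest were the X chromosome with 3.36 (4.51 and 4.55), chromosome 4 with 3.81 (5.21 and 5.13) and chromosome 13 with 3.93 (5.34 and 5.01). Across the 23 chromosomes, regions per Mb and coding genes per Mb had a Spearman correlation of 0.89, a description of 1 region set. Per coding gene the order was another. Chromosome 10 led with 1.74 regions per coding gene, and chromosome 19, with 0.693, was next to last above the X chromosome with 0.617. Chromosome 21 had the smallest share of coding genes with a region, 47.3%, against 81.5% on chromosome 16.

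**Figure D3:**
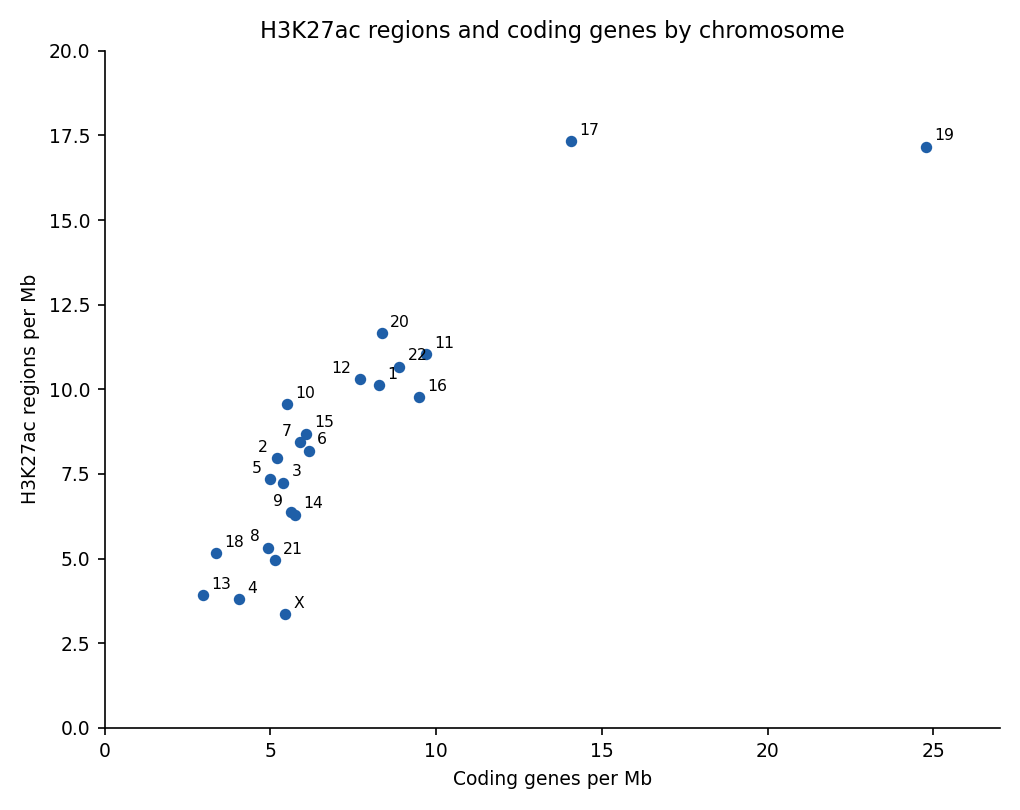
H3K27ac regions per Mb (y axis) against coding genes per Mb (x axis), 1 labelled point for each chromosome. Chromosomes 17 and 19 stand highest at 17.3 and 17.2 regions per Mb, although chromosome 19 holds 24.8 coding genes per Mb and chromosome 17 holds 14.1, and the X chromosome is lowest at 3.36.

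In bins of 1 Mb, 868 of 3040 bins (28.6%) held no region, the median bin held 4, and the 152 richest bins held 29.9% of all covered bases. The richest bin, chromosome 19 from 38 to 39 Mb, held 89985 bp in 73 regions (86858 bp in replicate 1 and 84432 bp in replicate 2). It includes ACTN4 and SPINT2, an epithelial serine protease inhibitor. The same bin ranked 71 of 3040 by H3K4me3 cover, 62 by H3K4me1 cover and 42 by BRG1 sites. Cover was not corrected for DNA copy number, which was not measured here, and its part in these ranks was not tested. Next were chromosome 17 from 48 to 49 Mb with 81697 bp, which holds the HOXB genes, and from 81 to 82 Mb with 76420 bp. The bin of SMAD3, on chromosome 15 from 67 to 68 Mb, was the fifth with 67709 bp, and ranked 669 by H3K4me3 cover and 1480 by H3K4me1 cover.

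Of 19974 coding genes, 14311 had a region in the gene span plus 50 kb on each side, 71.6% (95% exact interval 71.0 to 72.3), called the window below. In the span alone 9364, or 46.9%, had one. The median gene had 2 regions (quartiles 0 and 4) and 1240 bp of cover in its window, and 137 genes had 20 or more regions. Genes were then ranked by covered bases, with genes of overlapping windows joined to the highest of them. Covered bases were also counted from each library's own peaks. All 15 leading loci kept their place among the first 15 in each library alone.

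SMAD3 led the order by covered bases and by number of regions. Its window, of 229.568 kb, held 76 regions covering 65472 bp, with 64700 bp in replicate 1 and 58578 bp in replicate 2. Its strongest region, chr15:67065673-67067937, begins just inside the gene and had folds of 6.27 and 5.90 in the 2 libraries. Only 3 of the 76 regions met H3K4me3, 3 met H3K4me1, and 70 met neither, against 25.5% with neither across all regions. H3K4me1 calls were weak by q, as given above, so a region that met none may still carry that mark. No BRG1, SMARCC1 or NRF2 site met a SMAD3 region. The peaks at SMAD3 were weak by the authors' q: with only peaks of −log10 q of at least 5 in both libraries, 4939 bp of cover was left there, and 0 bp at 10.

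ACTN4 was the second locus, with EIF3K and CAPN12 in the same stretch. It held fewer but broader regions, 34 over 57237 bp (55710 bp in replicate 1 and 54591 bp in replicate 2). ACTN4 held the 3 widest regions of the genome, of 7269, 6886 and 6572 bp. Of the 34 regions, 15 met H3K4me1, 3 met H3K4me3, 16 met neither, and 3 met BRG1. At −log10 q of at least 5 ACTN4 kept 32658 bp, and at 10 it kept 19088 bp. As for its bin, DNA copy number at ACTN4 was not measured.

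The HOXB and HOXC clusters, which encode transcription factors of body position, were acetylated as blocks whose regions met no called H3K4me1 region. HOXB3, the highest gene of the HOXB2 to HOXB9 cluster, had 56 regions over 56518 bp, with 53014 bp in replicate 1 and 55084 bp in replicate 2. Of these regions 34 met H3K4me3, 0 met H3K4me1 and 22 met neither. HOXC10, the highest gene of the HOXC4 to HOXC12 cluster, had 40 regions over 40840 bp (38837 and 40203 bp). There 18 met H3K4me3, 0 met H3K4me1 and 22 met neither. These values belong to the clusters more than to either gene: in the gene span alone HOXB3 had 26660 bp and HOXC10 had 3 regions and 2871 bp. HOXB3 and HOXC10 were acetylated over 39.98% and 38.85% of their windows, the highest shares among the 15 loci.

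At most of the other leading loci more regions met H3K4me1 than H3K4me3. SEPTIN9 had 45974 bp in 54 regions, of which 21 met H3K4me1 and 10 met H3K4me3. TRIO, a guanine nucleotide exchange factor for small GTPases, had 36587 bp in 62 regions. TNS3, which encodes the focal adhesion protein tensin 3, had 36111 bp in 44 regions, 30 of them with H3K4me1. KCNMA1, the pore subunit of a calcium-activated potassium channel, had 35839 bp in 52 regions. HPCAL1, of the neuronal calcium sensor family, had 32480 bp. WWTR1, the Hippo pathway coactivator TAZ, had 31799 bp. ASAP2, a GTPase-activating protein for ARF, had 31140 bp, and SHB, an adaptor with an SH2 domain, had 30891 bp. SEMA4B, a membrane semaphorin, had 30293 bp. ZMIZ1, a transcriptional coactivator, had 29061 bp in 31 regions, of which 25 met H3K4me1 and only 2 met neither mark. LOC124905135 on chromosome 22 had 28099 bp in 42 regions, of which 16 met H3K4me3 and 0 met H3K4me1. Long windows have more room: by covered bases per kb of window KCNMA1 ranked 1961 and TRIO 514, while HOXB3 ranked 7, HOXC10 8, ACTN4 15 and SMAD3 16. With −log10 q of at least 5 in both libraries, HPCAL1 and SHB kept 0 bp, SEPTIN9 3569 bp and TRIO 1367 bp.

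**Figure D4:**
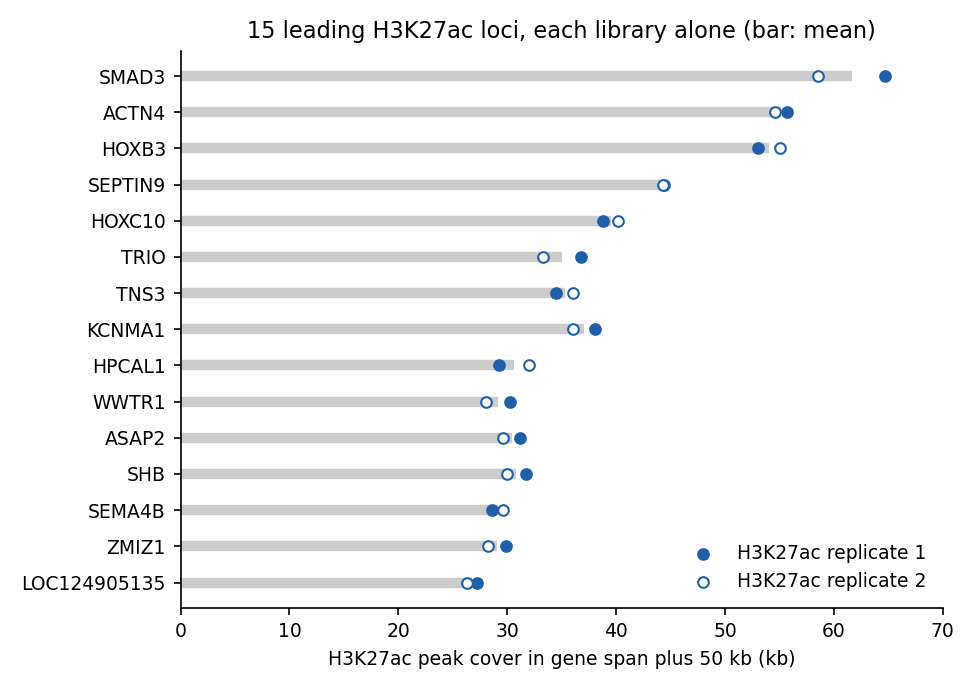
H3K27ac peak cover (x axis, kb) in the window of the leading gene of each of the 15 loci (y axis), with a point for each library and a grey bar for their mean. SMAD3 is first at 64700 bp in replicate 1 and 58578 bp in replicate 2, ACTN4 and HOXB3 follow within 53014 to 55710 bp, and the last, LOC124905135, lies at 27246 and 26286 bp.

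Regions were also joined into runs across gaps of at most 12.5 kb, as is done to find clustered enhancers. This gave 11549 runs, of which 6093 were 1 region. The 172 runs of 10 or more regions held 2668 of the 24239 regions and 12.7% of covered bases. The leading run, at SMAD3, had 71 regions over 132649 bp and was acetylated over 47.6% of its length. The HOXB run covered 65.4% of 86446 bp, the ACTN4 and CAPN12 run 63.4% of 87869 bp and the HOXC run 69.6% of 55792 bp. Then came runs at SEMA4B and CIB1, TRIO and WWTR1. EPHA2, an ephrin receptor kinase, held 25 regions with 24005 bp of cover, and PXN, the focal adhesion scaffold paxillin, 27 regions with 23958 bp. SEPTIN9 closed the first 10 with 23687 bp.

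Some long runs lay outside coding genes, over non-coding transcripts. The longest by cover, over LINC-PINT, had 25 regions and 18110 bp of cover (18223 bp in replicate 1 and 15950 bp in replicate 2). A run over MIR100HG, the host of MIR100 and MIRLET7A2, had 20 regions and 13620 bp (17155 and 12522 bp). MIR31HG, the host gene of miR-31, had 21 regions and 13465 bp (13899 and 11769 bp). MALAT1, an abundant nuclear RNA, lay in a run of 16 regions and 13364 bp (13049 and 12585 bp). PVT1, which neighbours MYC on chromosome 8, had 17 regions and 13343 bp (12868 and 12927 bp), and 14 of its 17 regions met H3K4me1 while 0 met H3K4me3.

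The strongest single regions were at other genes than the longest loci, and most were promoter-type. The highest mean fold was 12.6 at a 2301 bp region in TRPS1, a zinc-finger repressor of the GATA family, with 13.4 in replicate 1 and 11.9 in replicate 2. Next were regions in ZUP1, a ubiquitin peptidase, at 12.04 and 11.95 in the 2 libraries, SBF2 with a mean of 11.3, and RC3H1, the RNA-binding protein roquin 1, at 11.1. ZMYND8, a reader of acetylated histones, followed at 11.1. Then came BAK1, a mitochondrial cell death effector, at 10.8 in replicate 1 and 11.3 in replicate 2, and PTS, an enzyme of tetrahydrobiopterin synthesis, at 11.3 and 10.7. WAPL, which releases cohesin, had a mean of 10.9. CPSF6, a cleavage factor of pre-mRNA, was at 10.8 and KMT2B, a histone H3K4 methyltransferase, at 10.7. Of these 10 regions 9 met H3K4me3 without H3K4me1, and that in ZMYND8 met H3K4me1 alone. The ZUP1, ZMYND8 and PTS regions also met SMARCC1, and the CPSF6 region met BRG1.

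The widest regions lay at other genes than the strongest. After the 3 in ACTN4 came regions in SLC12A7, a potassium-chloride cotransporter (5928 bp), ITGA3, an integrin subunit (5754 bp), and SPATS2L (5464 bp). PLXND1, a semaphorin receptor, had one of 5401 bp, SPINT2 one of 5255 bp, LOC107985729 one of 5226 bp and BCL9L, a beta-catenin cofactor, one of 5146 bp. Their mean folds ran from 3.55 at LOC107985729 to 7.69 at SLC12A7, below all of the 10 strongest. In several the replicates differed in fold: the third ACTN4 region had 2.54 in replicate 1 and 6.05 in replicate 2, and that in SPATS2L 7.21 and 3.26.

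Lineage genes were read in the same way, each list against the 71.6% of all coding genes with a region in the window and the 46.9% with one in the span. Short genes in gene-rich places can gain a window region from a neighbour, and windows of neighbouring genes share regions, so both counts are given. No test was made on a list. The 20 housekeeping genes set the upper end: 20 had a region in the window and 18 in the span, and 13 of the 15 with a tabled start were acetylated within 1000 bp, against 45.4% of all tabled starts. Highest in the window were RPLP0 with 18803 bp, TUBB with 13781 bp, HSP90AB1 with 12182 bp and ACTB with 8537 bp. In the spans of these short genes the cover was 265, 830, 728 and 1767 bp in the same order.

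Keratin genes of duct cells had the most acetylation of the ductal list, and CFTR was among 6 members with none. Of 15 ductal genes, 9 had a region in the window, 6 in the span, and 2 of 8 tabled starts were acetylated. KRT7 had 21 regions, 6 in the gene, and 15038 bp (15051 bp in replicate 1 and 14051 bp in replicate 2), KRT19 had 11, 3 in the gene, and 9893 bp (9709 and 9498 bp). KRT8 had 13 regions, 12 in the gene, and 8091 bp (7474 and 7461 bp), and KRT18, its neighbour and keratin partner, 12, 2 in the gene, and 7746 bp (7129 and 7011 bp). The annotated span of KRT8, chr12:52897191-52949860, reaches into KRT18, which begins at 52948855. The windows of KRT8 and KRT18 therefore overlap, and their counts are not separate. No region lay in the windows of CFTR, CA2 (carbonic anhydrase), SLC4A4 (a bicarbonate transporter), SPP1, or the transcription factor genes ONECUT1 and ONECUT2. SPP1 had 3 peaks, of 854 bp in all, in replicate 2 and 0 in replicate 1, and the other 5 had no peak in either library. Of these 6 genes, 3 had H3K4me3 in the span and 2 had H3K4me1.

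Acinar enzyme genes had acetylation near them but not in them. Of 22 acinar genes, 12 had a region in the window, but only 1, GATA4, in the span, and 0 of 16 tabled starts were acetylated. The highest in the window were CTRB1 with 13040 bp, RBPJL with 7546 bp, and CTRC and CELA2A, which share the same 12 regions, with 7279 bp. No window region was found at PTF1A, the master regulator of acinar cells, or, among others, at CPB1, CELA1, PNLIP, CEL, AMY2A, REG1A, GP2 and SPINK1. None of the 10 acinar genes without a window region had H3K4me3 or H3K4me1 in the span. CELA1 and CEL had H3K27ac peaks that did not form a shared region, 3 and 2 peaks at CELA1 and 0 and 4 at CEL in replicates 1 and 2.

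Endocrine genes had the smallest share of members with a region of all 17 lists. Of 22 genes, 2 had a region in the window, 0 in the span and 0 of 16 tabled starts. PAX4, a regulator of beta cell fate, had 5 regions and 4865 bp near it, and G6PC2 had 1 and 735 bp. The hormone genes INS, GCG, SST, PPY and IAPP had none. Neither had transcription factor genes such as NEUROG3, NEUROD1, NKX2-2, NKX6-1, PAX6, ISL1, MAFA, INSM1, RFX6 and MNX1, or CHGA, PCSK1 and SLC30A8, genes of the secretory granule. At the 20 endocrine genes without a region neither library had a single H3K27ac peak in the window. Of them, NKX6-1 and MNX1 had an H3K4me3 region in the span, and ISL1, INSM1 and RFX6 an H3K4me1 region.

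Regulators of the foregut and early pancreas were acetylated in part. Of 14 such genes, 8 had a region in the window and 4 in the span, namely FOXA2, PDX1, SOX9 and HHEX. FOXA2, a pioneer factor of endoderm, had 6 regions, 1 in the gene, and 6138 bp (5689 and 5060 bp), and PDX1, needed for pancreas formation, 7, 2 in the gene, and 4960 bp (4457 and 4610 bp). SOX9, the factor of duct and progenitor cells, had 7 regions, 4 in the gene, and 4661 bp (4798 and 4291 bp), and HHEX 4, 1 in the gene, and 2359 bp (2234 and 1975 bp). The other 6, among them HNF4G, GATA6, PROX1, KLF4 and SOX17, had no region, although 4 of these 6 had H3K4me3 in the span. KLF4 had 1 peak in each H3K27ac library that did not meet.

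Classical and basal-like are the names of the main expression classes of pancreatic duct carcinoma. Of 24 classical genes, 15 had a region in the window, but only 2, AGR2 and ANXA10, in the span. The highest was LGALS4, a galectin, with 8659 bp, followed by MYO1A with 2789 bp, SPINK4 with 2768 bp and AGR2 with 2719 bp. Of their regions 1, at AGR2, lay in the gene and 0 at the other 3 genes. FAM3D, CTSE, TFF1, TFF2, TFF3, CEACAM6, TSPAN8, CYP3A7 and REG4 had none. Of 24 basal-like genes, 14 had a region in the window and 7 in the span. S100A2 led with 19 regions, 2 in the gene, and 16360 bp (16261 and 15566 bp), then KRT7, KRT15, whose window holds the same cover as that of KRT19, and the glucose transporter gene SLC2A1 with 14 regions, 11 in the gene, and 8125 bp. SPRR3, SPRR1B, CTSV, DHRS9, SERPINB3, SERPINB4, KRT6A, KRT6C, SCEL and KRT17 had none, of which KRT17 and DHRS9 had 1 peak in each library that did not meet.

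Most epithelial and most mesenchymal genes had a region in the window. Of 23 epithelial genes, 20 had a region in the window and 7 in the span. Of their 13 tabled starts 3 were acetylated, 23.1%, against 45.4% of all tabled starts. Of 26 mesenchymal genes, 22 had one in the window and 19 in the span. The difference between the lists was not tested, and mesenchymal windows were longer, with a median of 124.913 kb against 117.71 kb. Among epithelial genes SPINT2 had 16 regions, 4 in the gene, and 14846 bp (13670 and 13634 bp). RAB25, a small GTPase gene, had 14 regions and 8788 bp, 0 of them in the gene, and its start was not acetylated. GRHL2, an epithelial transcription factor, had 14 regions, 4 in the gene, and 8501 bp, and CLDN4, a tight junction claudin, 6, with 1 in the gene, and 5769 bp. CDH1, which encodes E-cadherin, had 2 regions and 660 bp, both outside the gene. OVOL2, ST14 and CRB3 had none.

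Among mesenchymal genes CD44, the hyaluronan receptor, had 29 regions and 19193 bp (18973 and 17186 bp), 28 of them in the gene. S100A4 had 19 regions, 2 in the gene, and 14732 bp (14709 and 13797 bp), in a window that overlaps that of S100A2. CCN1, a target of TAZ and YAP, had 14 regions, 2 in the gene, and 9684 bp (9109 and 9307 bp). VIM, which encodes vimentin, had 8 regions, 1 of them in the gene, and 4635 bp (5002 and 3870 bp) and an acetylated start, as did ZEB1, a repressor of epithelial genes, with 3 regions and 1914 bp (1307 and 1719 bp). Over the list 8 of 17 tabled starts were acetylated, 47.1%, against 45.4% of all tabled starts. Those of CDH2, FN1, ZEB2, TWIST2, SPARC, COL5A1, PDGFRB, ACTA2 and CCN2 were not. TWIST1, COL1A2, THY1 and CCN2 had no region in the window.

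**Figure D5:**
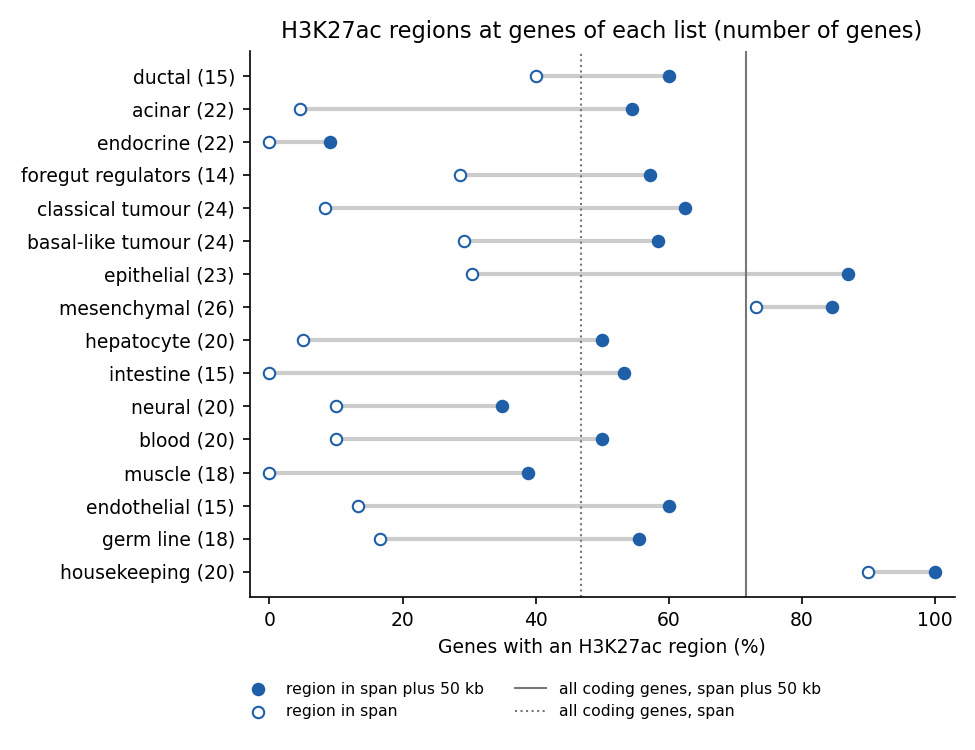
Share of genes of each list with an H3K27ac region (x axis, %) in the window (filled points) and in the span (open points), with the list's number of genes in brackets (y axis) and lines at the 71.6% and 46.9% of all coding genes. Mesenchymal genes at 84.6% and 73.1% and housekeeping genes at 100% and 90% lie right of both lines, epithelial genes lie right of the window line only, and endocrine genes are lowest at 9.09% and 0%.

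Genes of other tissues had few regions in their spans. Of 20 hepatocyte genes, 10 had a region in the window and 1 in the span, led by HPX with 2557 bp. ALB, APOB, TTR, SERPINA1, FGG, CYP3A4, CYP2E1, TAT, F9 and G6PC1 had none. Of 15 intestinal genes, 8 had one in the window and 0 in the span. Among these CDX2 has the same 7 window regions as its neighbour PDX1, and SI, ALPI, ATOH1, CHGA, LGR5, OLFM4 and DEFA5 had none. Of 18 muscle genes, 7 had one in the window and 0 in the span, and MYOD1, MYOG, MYF5, MYF6, MYH6, MYH7, TNNT2, ACTA1, NKX2-5, CHRNA1 and MYL1 had none.

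Of 20 neural genes, 7 had a region in the window and 2 in the span. MBP, known for myelin basic protein, stood apart with 28 regions and 23980 bp (23463 and 23333 bp), all in the gene. The 13 with none included SOX2, STMN2, NEUROG2, GAD1, GAD2, SNAP25, OLIG2, RBFOX3, ELAVL4 and TBR1, and 7 of these 13 had H3K4me1 in the span. Of 20 blood genes, 10 had one in the window and 2 in the span, and CD3D, CD3E, CD8A, TAL1, RUNX3, MS4A1, KIT, HBB, ITGAM and MPO had none. Of 15 endothelial genes, 9 had one in the window and 2 in the span, and PECAM1, CDH5, TEK, ERG, FLT1 and EMCN had none. Of 18 germ line genes, 10 had one in the window and 3 in the span, and DAZL, SYCP1, MAEL, PIWIL1, NANOS2, OOSP2, NOBOX and FIGLA had none.

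The longest runs of neighbouring coding genes without any region held clusters of related genes. They are read against the 28.4% of coding genes without a window region. Whether reads can be placed in such clusters of similar genes was not tested. The longest, from OR4B1 to APLNR on chromosome 11, held 65 genes over 9.02 Mb, of which 57 were olfactory receptors, and neither library had a peak in it. The next, on chromosome 8, ran from LOC124901872 to FAM90A12 with 52 genes, including 20 defensin and 19 FAM90A genes. On chromosome 1 a run from TCHH to S100A7A held 50 genes of the epidermal differentiation complex, with 19 late cornified envelope and 11 small proline-rich genes. A run from NLRP3 to LYPD8 held 47, of which 43 were olfactory receptors. The last, from KRT39 to KRT38 on chromosome 17, held 42, with 34 keratin-associated protein genes and 8 keratins. Over the genome, 41 of 392 olfactory receptor genes had a region in the window and 0 in the span, and 6 of 94 keratin-associated protein genes had one in the window and 0 in the span. The run from TCHH to S100A7A ends before the acetylated S100A2 and S100A4 genes of the same chromosome.

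The longest stretches of chromosome without a region were on chromosome 9, of 24.9 Mb, chromosome 1, of 23.3 Mb, and chromosome 16, of 12.9 Mb, each with few coding genes, 14, 7 and 2. As background, these stretches span centromeres and their flanking repeats. Stretches away from centromeres were 10.4 Mb on chromosome 4 with 4 coding genes and 9.82 Mb on chromosome 5 with 5.

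Among genes often altered in pancreatic cancer, CDKN2A was the only one of those looked up that had no region. It lies in a stretch of 641.661 kb, chr9:21805049-22446709, with 0 peaks in all 12 libraries, which also holds CDKN2B. As background, PANC1 carries a homozygous deletion of CDKN2A. SMAD4 had 1 region and 592 bp (846 bp in replicate 1 and 592 bp in replicate 2). MYC had 6 regions and 3046 bp (2894 and 3359 bp). NFE2L2, which encodes NRF2, was the most covered, with 12 regions and 10251 bp (9335 and 9910 bp), 10 of them in the gene. SMARCA4, which encodes BRG1, had 7 regions and 2757 bp (2842 and 3382 bp). SMARCC1 had 4 and 2694 bp (2655 and 2779 bp) and GAPDH, a glycolysis enzyme, 4 and 2508 bp (2186 and 3220 bp).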

How the data were processed

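CUT&RUN was measured in 12 libraries, 2 for each of 6 targets, grouped by target as labelled. Tools listed by the submitters' processing notes, with no role given, are MACS2 2.2.7.1, Picard 2.23.9, SAMtools 1.9 and Bowtie2 2.4.1, on GRCh38. A peak's fold enrichment is a ratio deposited by the authors, and whether it is over IgG or over a library's own background is not given in the sources used here. The −log10 q deposited by the authors served only as a threshold in alternatives, and of the deposited −log10 p only the lowest value was read. The score deposited by the authors was not used. The authors called peaks library by library, down to a lowest −log10 p of 2.01 in H3K27ac. The files hold no reads, so depth is unknown and a region may be missing only for want of reads. Exact (Clopper-Pearson) intervals at 95% cover counting error only.

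Peaks of both H3K27ac libraries on chromosomes 1 to 22 and X were merged, and regions with a peak from each were kept. Overlap meant at least 1 bp. Regions were counted for 19974 RefSeq GRCh38.p14 coding genes in the span and in the span plus 50 kb, per Mb between the first and last coding gene of a chromosome, and around the 15812 starts that the RefSeq promoter table gives. Starts of the other 4162 coding genes, among them all of chromosome 8, were not analysed here. Some positions in the table may count along alternate sequences. Other marks used their own regions with a peak in both replicates.

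Named are the 15 leading loci by covered bases, the 10 strongest and 10 widest regions, the 10 leading runs, the 5 longest runs of genes without a region, up to 4 leading members of each list and every member with 0 regions, and 10 genes looked up in any case. Some genes that this rule names are not reported here. The other genes with values (CTRC and CELA2A as a pair, CDH1, VIM, ZEB1, the mesenchymal starts named as not acetylated, KLF4, the non-coding runs and the starts without H3K4me3) were chosen after their values were seen. The 17 lists held 320 symbols, all found. The members and lists were chosen with earlier results of these data known, so no list was tested. Libraries were compared by exact permutation tests, and since the labels do not say that replicates are separate cultures, these p-values measure only the spread between these libraries. Alternatives were stricter q, more overlap, peaks of either replicate, joined peaks, each library left out, other gene windows and other orders. The interval code was tested on 50 simulated peak sets and 10000 windows, with 0 mismatches. Software was Python 3.11.15 with pandas 2.3.3, SciPy 1.17.1, matplotlib 3.10.9 and NumPy 2.4.6.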

Additional observations from a re-analysis of the deposited data

How the results depend on the processing

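With −log10 q of at least 5 in both libraries, 1579 regions over 2.06 Mb remained, with 3283 genes and 692 promoter windows, and at 10 there were 113 regions over 0.201 Mb, with 235 genes and 58 promoter windows. The ratio of regions per Mb on chromosome 17 to the X chromosome was 7.72 and 8.75 at these thresholds, against 5.16 as reported. The H3K4me3 share was 77.0% and 79.6%, and the H3K4me1 share 18.6% and 25.7%. Members with a region numbered 2 and 0 for ductal, 6 and 0 for acinar, 1 and 0 for endocrine, 3 and 0 for epithelial and 8 and 0 for mesenchymal genes. Of the 15 leading loci 4 and 4 stayed in the leading set, and of the 10 leading runs 3 and 2.

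Peaks of either replicate gave 36835 regions over 19.9 Mb, a chromosome ratio of 4.72, 47.6% with H3K4me3 and 21.2% with H3K4me1, and 6 shared leading runs. Joining peaks across 1000 bp gave 16085 regions over 23.04 Mb, with 4.24, 56.8% and 27.2%. Requiring both replicates over 50% of a region gave 15.05 Mb, 5.41, 55.9% and 20.5%. Without replicate 1 or without replicate 2, each library alone gave 16.40 to 16.41 Mb, a chromosome ratio of 4.91 to 4.93, 50.2% to 51.7% with H3K4me3 and 20.4% to 20.5% with H3K4me1, with 5 to 7 of the 10 strongest regions and 6 to 7 of the leading runs shared.

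With no bases added to the gene, 9364 genes had a region, with 1 acinar, 0 endocrine and 7 epithelial members. With 10 kb added these were 5, 0 and 12, and with 100 kb there were 9 endocrine members. Cover of at least 50% by H3K4me1 gave 17.7%. Ranking loci by covered bases per kb shared 5 of 15, ranking regions by width shared 0 of 10 and by the fold of replicate 2 alone 5. Starts within 1000 bp numbered 7177, against 4643 promoter windows of 300 bases met by a region.

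The replicate numbers of the labels do not say that libraries were paired. With a replicate block, that is pairing same-numbered libraries only, 51.4% of H3K27ac peaks met H3K4me3 and 23.8% met H3K4me1. The other 69 values of these results moved less than the spread between replicates or less than 1.5 times. Of the values for single genes and the other lists, 232 were counted as moved and 138 were not. Among them 190 of 250 covered-base values of 25 genes were counted as moved. Both counts of moved values include every value of CDKN2A, which was 0 bp in all settings and so did not change. For these moves the cause was not tested, beyond the smaller or larger number of peaks that each setting leaves.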
